A study of Mus musculus with 10 samples.

Results

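Transcripts of cholesterol and fatty acid synthesis and of sterol export were examined in the forebrain of mouse embryos that carried a permanently active FoxO3. The set was a list of 34 genes of these pathways, and a gene counted as measured where a probe set of the array named it and no other gene. By that rule 32 of the 34 genes were measured, out of 19938 genes in all, and Acat2 and Nr1h2 were not analysed here. Where several probe sets named a gene, the one with the highest mean over the 10 arrays was used.

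The transgenic group held 5 embryos, titled dtg, in which a constitutively active FoxO3 was driven by the forebrain promoter of CaMKIIa. FoxO3 is a forkhead transcription factor that leaves the nucleus when insulin signalling is active. The control group held 5 embryos, titled stg. The labels do not spell out dtg and stg or say which transgenes the controls carry. All embryos were at stage E12.5, on a mixed CD1/NMRI background, and came from 2 dams that are not assigned to embryos, so litter and group cannot be told apart. RNA from one side of each forebrain was put on its own array, and a level is a log2 intensity.

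Cells make cholesterol from acetyl units by way of mevalonate and squalene, and fatty acids from the same acetyl units by way of malonyl units. Both routes are switched on by the SREBP transcription factors, which the proteins SCAP and INSIG hold in the endoplasmic reticulum when sterols are plentiful. Sterol excess is met in the opposite way by the liver X receptors (LXR), nuclear receptors for oxidised sterols that raise the genes of export. The embryonic brain makes its own cholesterol, which growing membranes need, and passes it between cells on particles that contain apolipoprotein E.

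Across the 10 arrays the medians lay between 5.36 and 5.39, and the correlations between arrays over all genes lay between 0.98 and 0.996. The transgenic embryos had a Foxo3 level of 6.98 ± 0.15, against 6.64 ± 0.14 in controls (SD, n = 5 each), and 4 of 5 transgenic embryos lay above every control. Foxo3 differed by a log2 value of 0.34 ± 0.085 (SE, n = 5 per group) and did not pass an adjusted p of 0.05 in limma (0.218). As markers of the labelled tissue, Emx1, Emx2, Dlx1, Dlx2 and Lhx2 were read, and their mean level was 7.62 ± 0.15 in transgenic and 7.86 ± 0.49 in control embryos (SD, n = 5 each). All 5 had lower means in the transgenic group, with a median log2 difference of -0.26. Of the 5 genes 1, Emx1, lay below an unadjusted p of 0.05 in limma, where 7.58% of all genes did. Control embryo 5 had the lowest list mean, 7.17, but the genes were split. It was the lowest of all embryos for Dlx1 and Dlx2 and the highest of all for Emx1, Emx2 and Lhx2. Control embryo 5 stood apart from the rest, with the lowest mean level of 12 pan-neuronal genes, 7.59 against 8.57 to 8.87 in the other controls, and the highest of 8 mesenchyme genes, 8.39 against 6.46 to 7.34. By mean level even Mylip, the dimmest of the 32 genes, lay above 58.4% of all genes.

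The export transporters Abca1 and Abcg1 were higher in every transgenic embryo than in any control, the sterol-carrier gene Stard4 and the desaturase gene Scd2 were slightly lower on average, and the 16 measured enzymes from mevalonate to cholesterol had log2 differences between -0.15 and 0.13. In whole tissue, fewer cells of a type and less RNA per cell cannot be told apart. With limma over all genes, 0 of the 32 genes passed an adjusted p of 0.05, where 0.105% of all genes did, and Abca1 came nearest with an adjusted p of 0.0545. By the unadjusted p 2 genes lay below 0.05 in the upward direction, where 4.1% of all genes did, and 2 in the downward direction, where 3.48% did. Together they were 4 of 32, where 7.58% of all genes lay below it in either direction. The groups did not overlap for 2 of the 32 genes, both with transgenic embryos above controls, a placing seen in 0.978% of all genes, and for 0 genes with transgenic embryos below, seen in 0.622%. The median absolute log2 difference of the set was 0.066, against 0.059 over all genes.

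**Figure D1:**
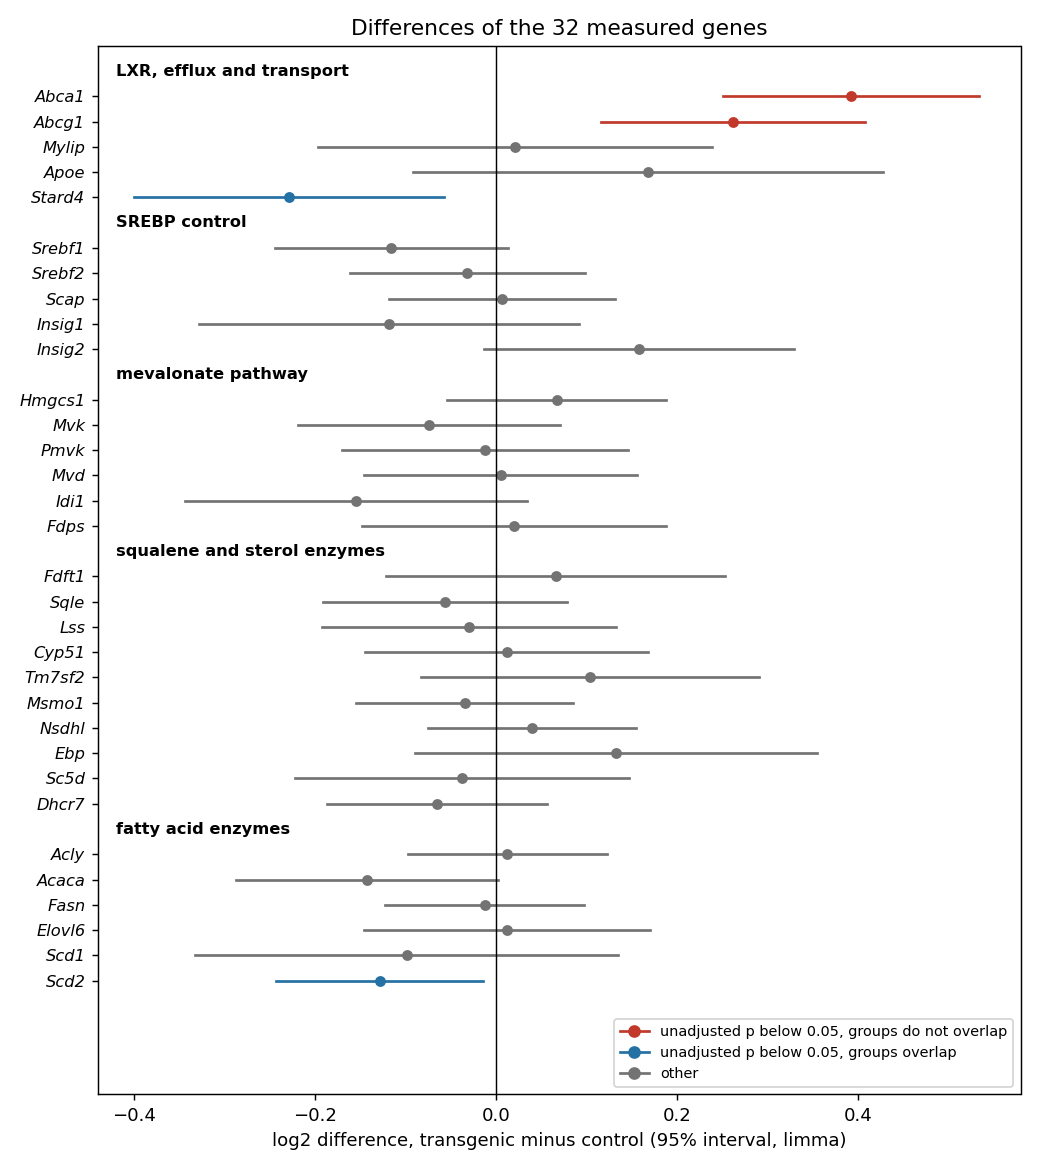
Log2 difference (horizontal axis, transgenic minus control) of each of the 32 measured genes with its 95% interval from limma, grouped by role. The intervals of Abca1 (0.25 to 0.53) and Abcg1 (0.12 to 0.41) lie above 0, those of Stard4 and Scd2 below 0, and those of the other 28 genes hold 0.

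Abca1 encodes the transporter that loads cholesterol and phospholipid onto apolipoproteins at the cell surface. Its level was 7.29, 7.28, 7.05, 7.21 and 7.19 in transgenic embryos 1 to 5, against 6.71, 6.73, 6.82, 6.85 and 6.94 in control embryos 1 to 5. The lowest transgenic embryo, number 3, was still above the highest control, number 5. The log2 difference was 0.39 ± 0.065 (SE, n = 5 per group), or 1.31-fold, with an adjusted p of 0.0545 in limma, and by its unadjusted p it ranked 22 among all genes, the first place after the 21 that passed. Leaving out single embryos moved the difference between 0.37 and 0.43. The adjusted p fell below the threshold without transgenic embryo 3 (0.0387) and without control embryo 5 (0.0351), and it was highest without transgenic embryo 1 (0.18).

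The promoter of Abca1 is shown because a known route to this gene runs through an element next to its start, to which LXR binds together with the retinoid X receptor. In the RefSeq window of GRCm38.p6 (chr4:53159846-53160145, minus strand, 250 bases before to 50 after the annotated start) the capitals mark GGTNA and, after 5 bases, GGTCA, both read on the opposite strand.
Abca1: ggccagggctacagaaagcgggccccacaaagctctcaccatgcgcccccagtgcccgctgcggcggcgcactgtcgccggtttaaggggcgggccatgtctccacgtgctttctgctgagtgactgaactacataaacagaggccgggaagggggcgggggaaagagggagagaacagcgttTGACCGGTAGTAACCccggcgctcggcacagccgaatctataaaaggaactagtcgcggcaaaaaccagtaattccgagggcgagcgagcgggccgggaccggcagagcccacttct
The marked stretch begins 67 bases before the start, and none of the other motifs searched was found in this window. The forkhead motif was searched only as GTAAACA. The window holds ATAAACA, which differs from it in the first letter and was not searched. Searched on both strands, GGTNA followed after 5 bases by GGTCA was present in 0.207% of the 32851 promoter windows of all genes. By gene, it was present in 0.226% of all genes with a window. Among the 27 listed genes with a window it was present in 3, namely Abca1, Fasn and Srebf1, whose log2 differences were 0.39, -0.012 and -0.12. This motif was chosen with the values and the Abca1 window in view, and a match is a run of letters and not a measured binding site.

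Abcg1 encodes a second export transporter, which passes cholesterol on to particles that already hold lipid. Its level was 7.21, 7.09, 7.21, 6.98 and 7.07 in transgenic embryos 1 to 5, against 6.95, 6.91, 6.90, 6.81 and 6.69 in control embryos 1 to 5. The groups did not overlap, although transgenic embryo 4 and control embryo 1 were only a little apart. The log2 difference was 0.26 ± 0.067 (SE, n = 5 per group), or 1.20-fold, and missed the threshold (adjusted p = 0.238 in limma). Over the fits that left out 1 embryo it lay between 0.22 and 0.30. Control embryo 5, the highest control for Abca1, was the lowest for Abcg1.

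**Figure D2:**
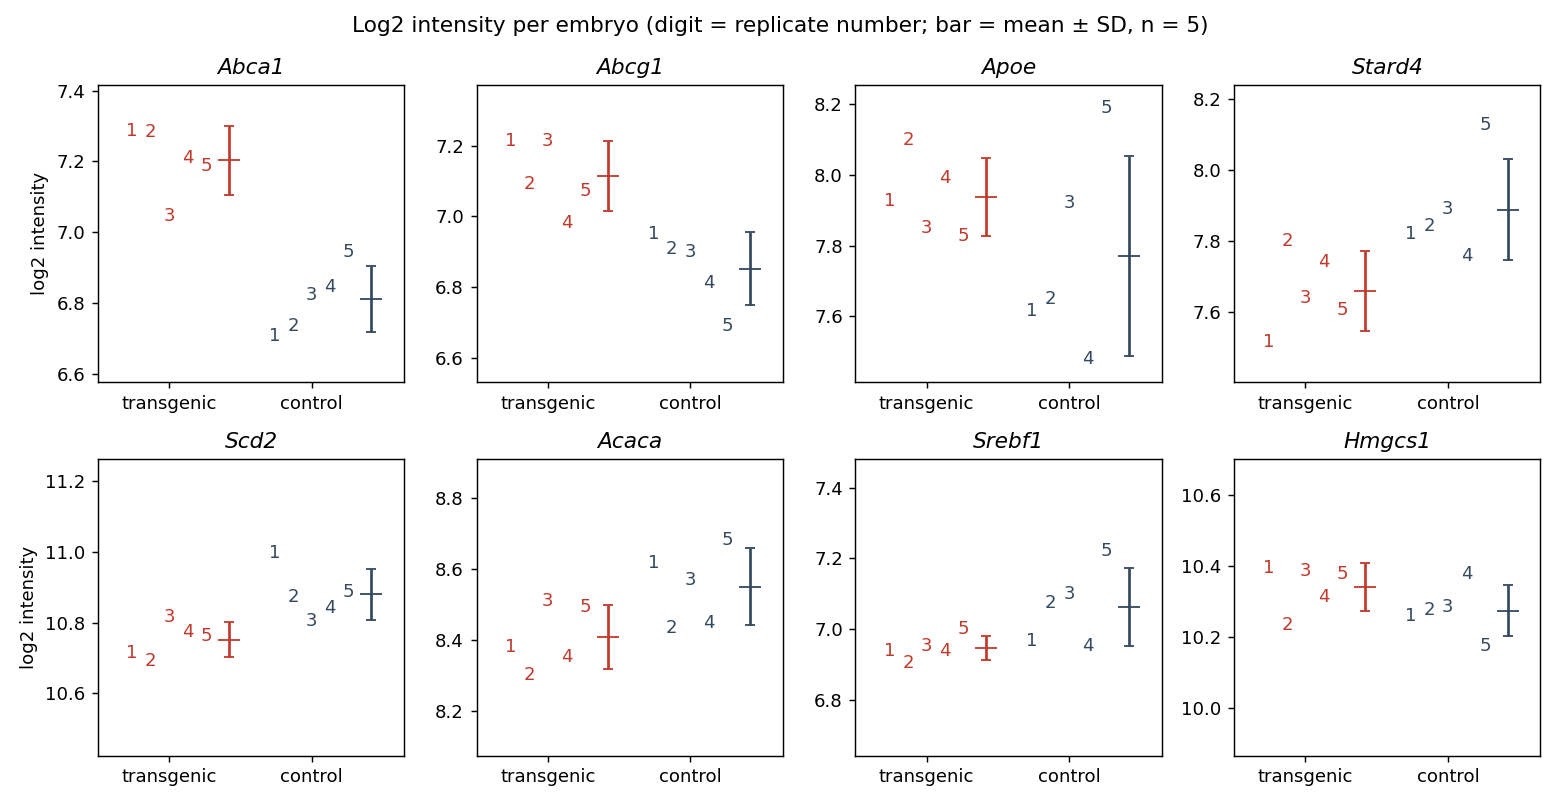
Log2 intensity (vertical axis, each panel spanning the same range) of 8 genes in every embryo, with transgenic embryos on the left and controls on the right. Digits are replicate numbers and bars are mean ± SD (n = 5 per group). The groups are apart for Abca1 and Abcg1 and overlap for the other 6 genes.

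Apoe, whose product carries cholesterol between brain cells and accepts it from Abca1, did not separate the groups. Its level was 7.93, 8.10, 7.85, 7.99 and 7.83 in transgenic embryos, against 7.61, 7.65, 7.92, 7.48 and 8.19 in controls. The 5 transgenic embryos were close together, while the controls spread widely, with control embryo 5 above all others. Its log2 difference was 0.17 ± 0.12 (SE, n = 5 per group; adjusted p = 0.813 in limma). It was 0.27 without control embryo 5 and 0.096 without control embryo 4. Mylip, which encodes the ubiquitin ligase that LXR uses to remove lipoprotein receptors, had a log2 difference of 0.021 (95% interval -0.20 to 0.24).

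Stard4 encodes a small carrier that moves cholesterol between membranes inside the cell and is a known target of SREBP. Its level was 7.51, 7.80, 7.64, 7.74 and 7.60 in transgenic embryos, against 7.82, 7.84, 7.89, 7.76 and 8.13 in controls. In 4 of 5 transgenic embryos it was below every control, and transgenic embryo 2 lay within the control range. Transgenic minus control, Stard4 differed by a log2 value of -0.23 ± 0.079 (SE, n = 5 per group; adjusted p = 0.503 in limma), and -0.17 without control embryo 5, the highest of the 10.

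**Figure D3:**
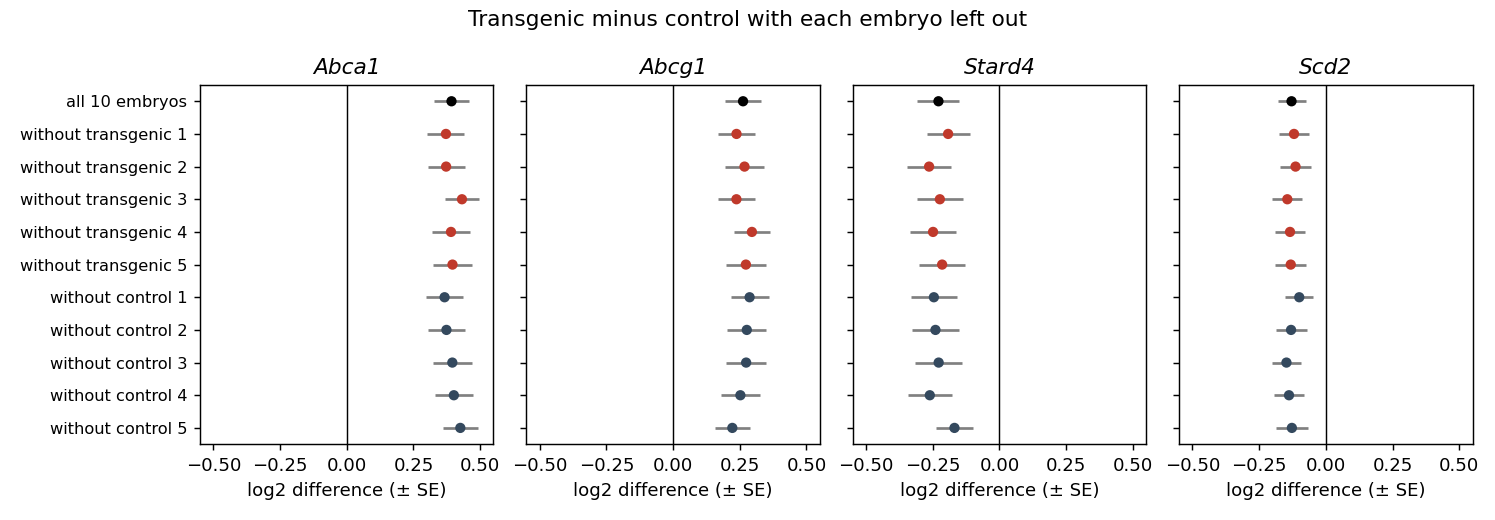
Log2 difference (horizontal axis, transgenic minus control, bars are SE) of Abca1, Abcg1, Stard4 and Scd2 with all 10 embryos and with each embryo left out in turn (vertical axis). The differences stay above 0 for Abca1 (0.37 to 0.43) and Abcg1 (0.22 to 0.30) and below 0 for Stard4 (-0.26 to -0.17) and Scd2 (-0.15 to -0.10).

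Markers of other cells were set beside the export transporters. The dissection cut the forebrain away from the thalamus, and all 8 thalamus and diencephalon genes had higher means in the transgenic group. The mean level of that list ran from 6.75 to 7.67 in transgenic embryos and from 5.70 to 7.15 in controls. The median log2 difference of the 8 genes was 0.87. Of the 8 genes 6 had an unadjusted p below 0.05 in limma, where 7.58% of all genes did, with 0 past the adjusted threshold. The transgenic minus control difference was 2.26 for Olig3 and 1.74 for Tcf7l2, both larger than that of Abca1. The list means of the groups overlapped, with control embryos 3 and 4 at 6.87 and 7.15 and transgenic embryos 4 and 5 at 6.75 and 7.07.

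Of 7 microglia genes 6 had higher means in the transgenic group, with 0 past the adjusted threshold of limma and 0 below an unadjusted p of 0.05. The mean level of the microglia list ran from 5.11 to 5.31 in transgenic and from 4.92 to 5.31 in control embryos. The mesenchyme list ran from 6.75 to 7.47 in transgenic and from 6.46 to 8.39 in control embryos, and the endothelial list from 6.35 to 6.73 in transgenic and from 6.33 to 6.93 in control embryos. All 12 pan-neuronal genes had higher means in the transgenic group, with list means from 8.54 to 9.14 against 7.59 to 8.87 in controls. Control embryo 5 was the lowest of all embryos in each of the 12 genes. The list means of the other controls ran from 8.57 to 8.87, within the transgenic range. How many of the 12 stay higher without control embryo 5 was not tested. All 9 measured cell-cycle genes had lower means, with list means from 8.51 to 8.98 against 8.92 to 9.10 in controls. Of these lists 0 of 12 neuronal and 4 of 9 cell-cycle genes had an unadjusted p below 0.05 in limma, with 0 past the adjusted threshold. Over all 19938 genes 7.58% lay below that p, 9594 had higher means and 10344 had lower means. Of 10 radial glia genes 5 had higher and 5 lower means, and 1, Pax6, had an unadjusted p below 0.05 in limma. All 4 measured erythroid genes had lower means, and of 6 measured oligodendrocyte genes 3 had higher and 3 lower means. In the erythroid and oligodendrocyte lists 0 genes lay below that p. The part of any of these lists, the thalamus list included, in the differences of this gene set was not tested.

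**Figure D4:**
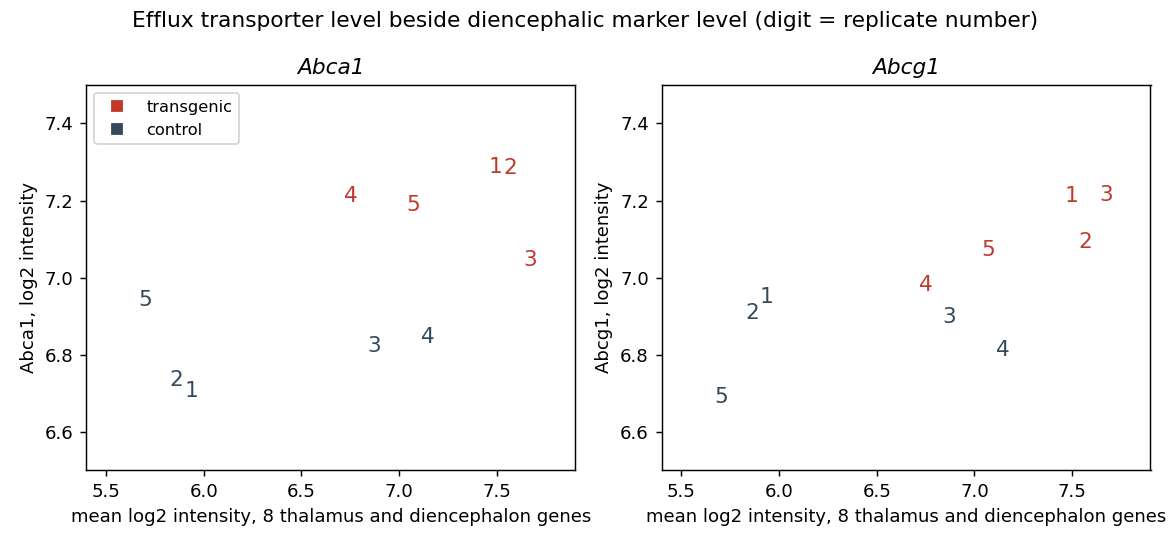
Log2 intensity of Abca1 (left) and Abcg1 (right, both on the vertical axis) against the mean log2 intensity of 8 thalamus and diencephalon genes (horizontal axis) in each embryo. Digits are replicate numbers. The list means run from 6.75 to 7.67 in transgenic embryos and from 5.70 to 7.15 in controls, so the list and both transporters are higher on average in the transgenic group.

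The genes that set SREBP activity showed small differences. Srebf1, which encodes the SREBP form tied to fatty acid synthesis and is itself an LXR target, had levels of 6.94, 6.90, 6.95, 6.94 and 7.00 in transgenic embryos, against 6.97, 7.07, 7.10, 6.95 and 7.22 in controls. In 4 of 5 transgenic embryos Srebf1 was below every control, by narrow margins, and control embryo 5 was the highest. The log2 difference was -0.12 ± 0.059 (SE, n = 5 per group; adjusted p = 0.712 in limma) and -0.076 without control embryo 5. Srebf2, the form tied to cholesterol synthesis, had levels of 8.83, 8.70, 8.91, 8.71 and 8.76 in transgenic embryos, against 8.91, 8.84, 8.82, 8.79 and 8.71 in controls, and the groups overlapped. Its log2 difference was -0.032, with a 95% interval of -0.16 to 0.098.

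Insig1, whose transcript SREBP itself raises, had levels of 8.67, 8.49, 8.59, 8.69 and 8.97 in transgenic embryos, against 8.91, 8.76, 8.55, 8.84 and 8.95 in controls. Both groups spread widely, and the log2 difference of -0.12 ± 0.096 (SE, n = 5 per group) did not pass (adjusted p = 0.841 in limma). It was -0.071 without transgenic embryo 2, -0.19 without transgenic embryo 5 and -0.18 without control embryo 3. Insig2, a retention protein of the same family, went the other way on average. Its level was 7.88, 7.55, 7.65, 7.66 and 7.60 in transgenic embryos, against 7.53, 7.60, 7.67, 7.37 and 7.39 in controls. Only transgenic embryo 1 lay above every control, and the log2 difference was 0.16 ± 0.079 (SE, n = 5 per group; adjusted p = 0.696 in limma), and 0.11 without transgenic embryo 1. Scap, the sterol sensor that escorts SREBP, differed by 0.0069, with a 95% interval of -0.12 to 0.13.

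The 6 measured genes of the mevalonate steps had log2 differences between -0.15 and 0.067. Hmgcs1, the synthase that commits acetyl units to the pathway and a standard SREBP target, had levels of 10.39, 10.23, 10.39, 10.31 and 10.38 in transgenic embryos, against 10.26, 10.28, 10.28, 10.38 and 10.17 in controls. In 3 transgenic embryos it was just above every control, and embryo 2 lay below most of them. The log2 difference of Hmgcs1 was 0.067, with a 95% interval of -0.054 to 0.19, and 0.042 without control embryo 5. Its promoter is shown as an example of the SREBP route, with the core of the sterol regulatory element in capitals (GRCm38.p6, chr13:119690101-119690400, plus strand).
Hmgcs1: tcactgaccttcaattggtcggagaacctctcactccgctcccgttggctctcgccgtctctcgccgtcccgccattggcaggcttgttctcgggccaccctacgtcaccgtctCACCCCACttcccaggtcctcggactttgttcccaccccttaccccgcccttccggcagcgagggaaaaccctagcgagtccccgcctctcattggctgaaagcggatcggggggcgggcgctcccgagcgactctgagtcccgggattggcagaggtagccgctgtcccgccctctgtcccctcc
The core, CACCCCAC, begins 136 bases before the annotated start and overlaps no other motif searched. Searched on both strands, it was present in 2.87% of all promoter windows and in 3.30% of all genes with a window. Among the 27 listed genes with a window it was present in 2, Hmgcs1 and Acat2. The box CCAAT, bound by NF-Y, a partner of SREBP, was present in 56.8% of the 37 windows of these genes and in 37.4% of all windows. The forkhead motif GTAAACA was present in 3.65% of all windows and in 4.05% of all genes with a window. Among the 27 listed genes with a window it was present in 2, Elovl6 and Apoe.

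Idi1, the isomerase that balances the isoprenoid units, had the lowest value among the mevalonate genes. Its level was 8.36, 8.23, 8.29, 8.47 and 8.49 in transgenic embryos, against 8.43, 8.35, 8.42, 8.65 and 8.76 in controls. The 2 highest values were those of control embryos 4 and 5, and the other embryos were mixed. For Idi1 the log2 difference was -0.15 ± 0.087 (SE, n = 5 per group; adjusted p = 0.748 in limma), -0.16 with its other probe set, and -0.096 without control embryo 5. The kinases Mvk and Pmvk differed by -0.074 (-0.024 without transgenic embryo 5) and -0.012, the decarboxylase gene Mvd by 0.0052, and Fdps, which joins isoprenoid units to farnesyl diphosphate, by 0.020.

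The 10 genes from squalene to cholesterol had log2 differences between -0.065 and 0.13, with 5 above and 5 below 0. Fdft1, the synthase of squalene, differed by 0.066 (and by -0.030 with its other probe set), and Sqle, the epoxidase that is a control point of the pathway, by -0.057. Lss, which closes the sterol rings, differed by -0.030, and the demethylase gene Cyp51 by 0.012. Among the later steps the reductase gene Tm7sf2 differed by 0.10, the oxidase gene Msmo1 by -0.034, Nsdhl by 0.040, the desaturase gene Sc5d by -0.038 and Dhcr7, the last reductase, by -0.065. Single embryos weighed on these small values, and with 1 embryo left out Tm7sf2 lay between 0.042 (without transgenic embryo 1) and 0.15 (without transgenic embryo 2), Fdft1 between 0.018 and 0.12, Sqle between -0.084 and -0.021 and Dhcr7 between -0.085 and -0.037.

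Ebp, the sterol isomerase, had the highest value of the sterol genes. Its level was 6.37, 6.34, 6.13, 6.25 and 6.49 in transgenic embryos, against 6.36, 5.81, 6.23, 6.26 and 6.25 in controls. Control embryo 2 was far below the other 9 embryos, which overlapped, and the log2 difference of 0.13 shrank to 0.040 without it. Over all 16 measured sterol enzymes 0 had an unadjusted p below 0.05 in limma, where 7.58% of all genes did. Each 95% interval of the 16 held 0, as did those of 18427 of all 19938 genes. The lowest bound among the 16 enzymes was -0.34, for Idi1, and the highest 0.36, for Ebp. The median SE of a difference was 0.072 on the log2 scale in these enzymes and 0.076 over all genes.

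**Figure D5:**
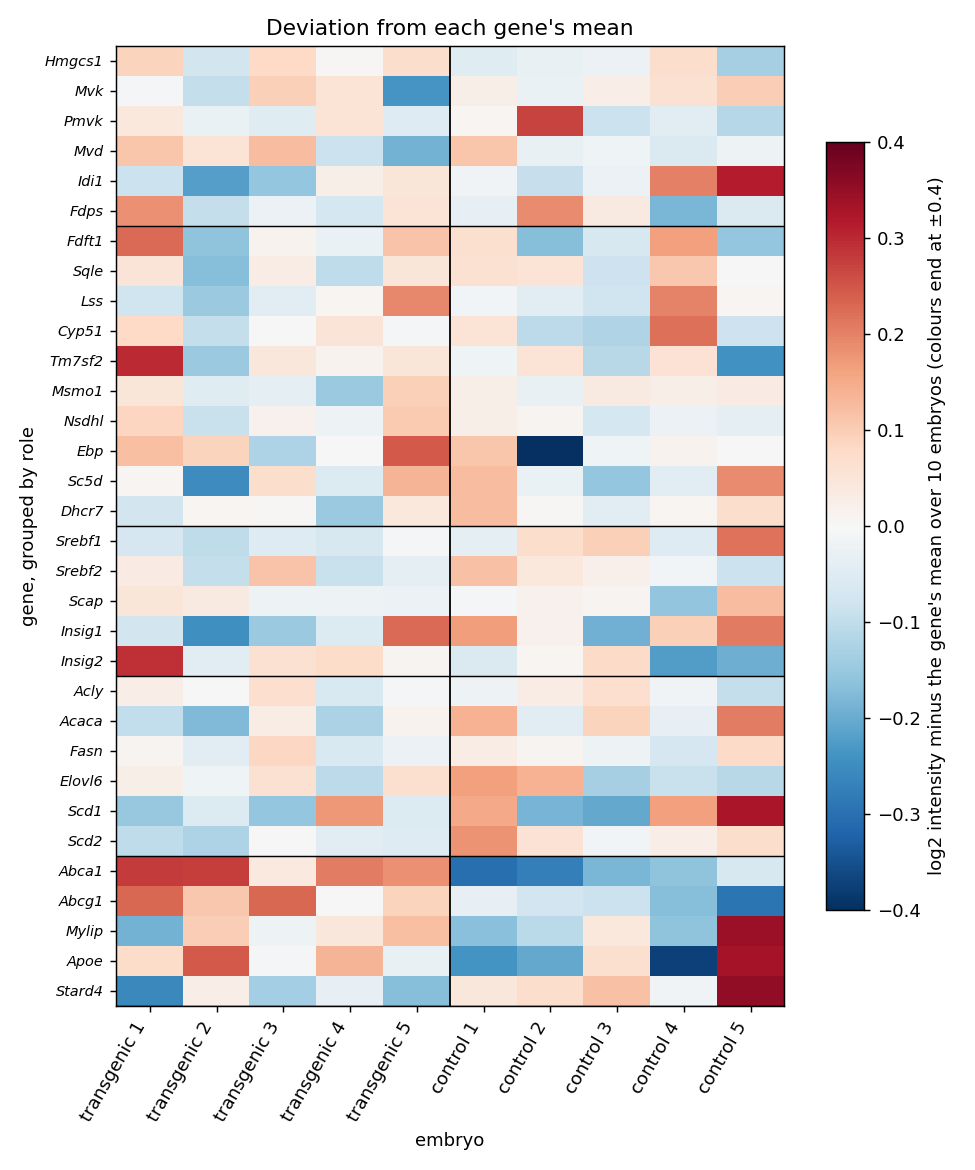
Deviation of log2 intensity from each gene's mean over the 10 embryos (colour, ending at 0.4 on either side) for the 32 measured genes (rows, grouped by role) in transgenic embryos (left) and controls (right). The Abca1 and Abcg1 rows change colour between the groups, while sterol enzymes vary by embryo, with transgenic embryo 2 below the gene mean in 13 of 16.

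Sterol enzymes varied among embryos of the same group, with a median SD within groups of 0.11, against 0.12 over all genes. The median absolute log2 difference between the groups was 0.048 in these enzymes and 0.059 over all genes. In transgenic embryo 2, 13 of the 16 enzymes were below their mean over all embryos, with a median deviation of -0.095, and it held the lowest value of the 10 embryos for 5 enzymes. Control embryo 3 was also below the mean for 13 of 16, with a median deviation of -0.053. In transgenic embryos 1 and 5, 12 of 16 were above the mean, with median deviations of 0.066 and 0.051, and in control embryos 1 and 4, 11 of 16 were above, with 0.024 and 0.041. High and low embryos were thus found in both groups.

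Of the 6 fatty acid genes, 4 had lower and 2 higher means in transgenic embryos, with log2 differences between -0.14 and 0.013. Scd2, the desaturase that makes monounsaturated fatty acids in developing brain, had levels of 10.71, 10.69, 10.81, 10.77 and 10.76 in transgenic embryos, against 11.00, 10.87, 10.80, 10.84 and 10.89 in controls. In 4 of 5 transgenic embryos it was below every control, and transgenic embryo 3 lay just above control embryo 3. The log2 difference was -0.13 ± 0.053 (SE, n = 5 per group; adjusted p = 0.608 in limma) and -0.10 without control embryo 1. Scd1, the closely related desaturase known best from liver and fat, had levels of 6.35, 6.44, 6.35, 6.67 and 6.44 in transgenic embryos, against 6.65, 6.31, 6.29, 6.66 and 6.83 in controls. Its groups overlapped, and the log2 difference of -0.099 was -0.030 without control embryo 5 and -0.16 without control embryo 3.

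Acaca encodes the carboxylase that makes malonyl units, the committing step of fatty acid synthesis. Its level was 8.38, 8.30, 8.51, 8.35 and 8.49 in transgenic embryos, against 8.62, 8.43, 8.57, 8.45 and 8.68 in controls. In 3 of 5 transgenic embryos it was below every control, and embryos 3 and 5 lay within the control range. For Acaca the log2 difference was -0.14 ± 0.067 (SE, n = 5 per group; adjusted p = 0.667 in limma) and -0.18 with its other probe set. The remaining genes of the route had values close to 0, with 0.013 for Acly, which makes acetyl units from citrate, -0.012 for Fasn, the synthase itself, and 0.012 for the elongase gene Elovl6. The 95% interval of Fasn ran from -0.12 to 0.098 and that of Acly from -0.097 to 0.12.

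Beyond these genes a list of 56 others of the same pathways was read, of which 48 were measured. With limma over all genes 0 of the 48 passed the adjusted threshold, and 7 had an unadjusted p below 0.05, 4 higher, where 4.1% of all genes did, and 3 lower, where 3.48% did. The median log2 difference of the 48 was 0.031, against -0.0038 over all genes. Of the 10 measured genes of sterol uptake and trafficking 9 had higher means in transgenic embryos and 1 a lower mean. Over all genes 9594 of 19938 had higher means. Among the 9, Osbp (1.5e-05), Lrp8 (0.035) and Stard3 (0.052) had log2 differences close to 0. Npc1, which lets cholesterol out of lysosomes, had levels of 7.87, 7.70, 7.87, 7.65 and 7.82 in transgenic embryos, against 7.57, 7.58, 7.73, 7.58 and 7.53 in controls, so that 3 of 5 transgenic embryos lay above every control. Its log2 difference was 0.18 ± 0.062 (SE, n = 5 per group; adjusted p = 0.497 in limma). The lipoprotein receptor gene Lrp1 differed by 0.21 ± 0.081 (adjusted p = 0.589).

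Pltp, which encodes a phospholipid transfer protein and is a known LXR target, differed by 0.31 ± 0.13 (SE; adjusted p = 0.63 in limma), and its groups overlapped. It was 0.20 without control embryo 2 and 0.41 without control embryo 3. Acss2, which makes acetyl units from acetate, had levels of 6.68, 6.54, 6.65, 6.67 and 6.77 in transgenic embryos, against 6.36, 6.60, 6.44, 6.51 and 6.31 in controls. In 4 of 5 transgenic embryos Acss2 was above every control, with a log2 difference of 0.22 ± 0.066 (SE, n = 5 per group; adjusted p = 0.418 in limma). The values on the lower side were -0.24 for Cyp46a1, the neuronal enzyme that turns cholesterol into a form that leaves the brain, -0.23 for the elongase gene Elovl7 and -0.21 for Mcat, of mitochondrial fatty acid synthesis. Their adjusted p values in limma were 0.637, 0.562 and 0.594, and the groups overlapped for each. In the same order 1, 3 and 4 of 5 transgenic embryos lay below every control. By the same rule Thrsp, a lipogenic gene known from liver, is named with -0.11 (unadjusted p = 0.159). Elovl7 lay above 27.9% of all genes by mean level. Of the LXR pathway 6 other genes were measured, 3 with higher and 3 with lower means in transgenic embryos. Among them Nr1h3, which encodes one of the receptors, differed by -0.010, and Lpcat3, a target gene in the phospholipid pathway, by -0.056. Nr1h3 was dim, above 35.3% of all genes by mean level.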

How the data were processed

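Total RNA from one side of the forebrain of 10 embryos was labelled and hybridised to 1 Affymetrix array per embryo. The deposited values are log2 intensities of 35556 probe sets, and the submitters' processing notes name Affymetrix Expression Console; its version and settings are not given in the sources used here. Array medians were nearly equal as deposited, so no further scaling was applied. Precision is limited by the number of arrays.

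The platform's gene table named 1 gene for 21789 probe sets, several for 1621 and none for 12146. Symbols were updated by gene identifier with the RefSeq table of GRCm38.p6. Groups came from the titles. All 19938 genes were fitted with limma 3.58.1 in R 4.3.3 (group only, empirical Bayes, two-sided, with Benjamini-Hochberg adjustment across all genes and a threshold of 0.05), after the procedure had been tested on simulated data. Intervals are 95% intervals of that fit. The labels do not say that replicate numbers pair embryos, and they were not used as pairs.

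The genes, the other pathway and marker lists and the tests were chosen with earlier results of these data known. Levels in every embryo are given for up to 5 genes in each direction with the smallest p, and for Srebf1, Srebf2, Hmgcs1, Insig1, Scd1, Abca1 and Apoe. Of the other pathway genes up to 4 in each direction were named; Nr1h3 and Lpcat3 were added after their values were seen. Promoter sequences are from RefSeq (GRCm38.p6), with windows for 27 of the 34 genes. Alternatives were the replicate block, each embryo left out, quantile normalization, median centring, dropping genes below the 40th percentile, trend and robust variances, array weights and the mean of a gene's probe sets. The other probe set of Idi1, Fdft1 and Acaca was added after the data were seen.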

Additional observations from a re-analysis of the deposited data

Results flagged for a closer look

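In 3 of the 64 groups of 5 embryos examined for single genes, 1 embryo stood far from its 4 fellows by Dixon's ratio, and chance alone gives about 1 in 20. In the control group, Ebp was 5.81 in embryo 2, with 6.23 the nearest other value. Msmo1 was 9.68 in control embryo 2, with 9.73 the nearest other value. Mvd was 6.94 in control embryo 1, with 6.81 the nearest other value.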

How the results depend on the processing

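The number of the 32 genes past the adjusted threshold was 0 with all embryos and 1, Abca1, with quantile normalization, without dim genes, with trend and robust variances and with array weights (1 in each). Leaving out single embryos gave 0 to 1. The adjusted p of Abca1 in limma ran from 0.0215 with array weights to 0.225 with the replicate block, and its log2 difference from 0.37 to 0.43, so this gene lies at the threshold in either direction. Over all genes 21 passed, against 2 with the replicate block, 39 with array weights, and 7 (without transgenic embryo 1) to 58 (without control embryo 4) with an embryo left out. The counts by unadjusted p and of groups without overlap stayed within 1.5 times in every alternative. Same-numbered embryos did not deviate together (correlations from -0.25 to 0.24, 0 of 5 best with their own number), so the block pairs only numbers. Values near 0 changed sign. Median centring gave -0.0077 for Mvd, -0.0011 for Cyp51, -0.0060 for Scap, -0.00035 for Acly and -0.00066 for Elovl6; array weights gave -0.0063 for Mvd, and the other probe set -0.030 for Fdft1. Leaving out single embryos gave -0.042 to 0.054 for Pmvk, -0.025 to 0.053 for Mvd, -0.024 to 0.070 for Fdps, -0.082 to 0.016 for Lss, -0.017 to 0.068 for Cyp51, -0.081 to 0.020 for Sc5d, -0.032 to 0.039 for Scap, -0.0094 to 0.031 for Acly, -0.035 to 0.0048 for Fasn, -0.020 to 0.055 for Elovl6 and -0.018 to 0.11 for Mylip. The cause was not tested.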
